A study of Cavia porcellus with 9 samples.

Results

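Cone opsins and the cone-specific proteins of phototransduction were examined as 8 genes: the opsins Opn1sw and Opn1mw, the transducin subunits Gnat2 and Gngt2, the phosphodiesterase subunits Pde6c and Pde6h, and the channel subunits Cnga3 and Cngb3. They were chosen by name, and all 8 have a row among the 19962 genes of the deposited count table. All 8 also passed the filter on low counts, which left 15469 genes to test. Retinas came from male tri-color guinea pigs of the Dunkin-Hartley strain, obtained at 2 weeks of age and sampled at 12 weeks. The animals had lived for 8 weeks on a light-dark cycle under green light, blue light or white light, with white light as the reference. No wavelength or intensity of these lights is given in the sources used here. The series title names wavelength defocus and refractive development, so the lights were compared in pairs.

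Cones are the photoreceptors of daylight and colour vision. An opsin that absorbs light activates cone transducin, transducin releases the phosphodiesterase from its inhibitory subunit, cyclic GMP falls and the cyclic-nucleotide-gated channel of the outer segment closes. The guinea pig retina has cones with a short-wavelength opsin and cones with a middle-wavelength opsin, arranged along a dorsoventral gradient with cones that hold both opsins between. Defects of several of these genes, CNGA3 and CNGB3 among them, cause achromatopsia in people, a loss of cone function.

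Each light group holds 3 libraries with 62155041 to 74979806 counts. In each group 2 of the 3 library titles share an animal number, so the 9 libraries carry 6 animal labels. In blue (libraries 2 and 3, animal 32) and white (libraries 1 and 2, animal 6) these are the right and left eyes, in that order. In green, libraries 1 and 2 (animal 11) are both titled as right eyes. The tests treat libraries as independent, and their p-values measure a spread that is partly between eyes or libraries of an animal. Of 6 cone markers, 5 were measured and together reached 2382 to 2721 CPM per library (counts per 10 to the power of 6, scaled by TMM), while Arr3 was not analysed here. The 8 markers of the pigment epithelium, the layer behind the retina, summed to 80.3 to 346 CPM in green, 269 to 386 CPM in blue and 116 to 395 CPM in white. Of these 8, 7 were lower and 1 higher in green than in white (median log2 difference -0.30). In blue, 7 were higher and 1 lower than in white (median 0.32), and edgeR called 0 in either comparison.

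The opsin of short-wavelength cones lay slightly higher in green-reared than in white-reared retinas, and the middle-wavelength opsin slightly lower on average, neither past the test. Opn1sw measured 615, 611 and 698 CPM under green light, 637, 616 and 541 CPM under blue light and 582, 554 and 579.9 CPM under white light. Every green library lay above every white one, whereas the blue libraries reached from below the white ones into the lower part of the green range, and library 3 of green lay above all others. The group means were 641 ± 49.3 CPM under green, 598 ± 50.3 CPM under blue and 572 ± 15.7 CPM under white light (SD, n = 3). The log2 difference between green and white was 0.17 ± 0.08 (SE), with a 95% interval from -0.02 to 0.35 (edgeR adjusted p = 0.866). Without library 3 of green it was 0.095. Blue differed from white by 0.06 ± 0.08 (interval -0.12 to 0.25) and green from blue by 0.10 ± 0.08 (interval -0.08 to 0.28) on the log2 scale. In whole retina, a change in the number of cones and a change in RNA per cone cannot be told apart.

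Opn1mw, whose pigment absorbs best in the green part of the spectrum, had 553, 643 and 673 CPM in the green libraries, 605, 641 and 707 CPM in the blue ones and 638, 754 and 660.5 CPM in the white ones. The ranges overlapped in all comparisons, and library 2 of white alone lay above every library of the other lights. Means were 623 ± 62.3 CPM under green, 651 ± 51.4 CPM under blue and 684 ± 61.3 CPM under white light. The order of the means, white, blue, green, was the reverse of that of Opn1sw, and no neighbours in either order differed beyond their spread. Green minus white came to -0.14 ± 0.10 on the log2 scale (interval -0.35 to 0.08, edgeR adjusted p = 0.949). It was -0.061 without library 1 of green and -0.060 without library 2 of white. Blue minus white came to -0.07 ± 0.10 and green minus blue to -0.06 ± 0.10.

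**Figure D1:**
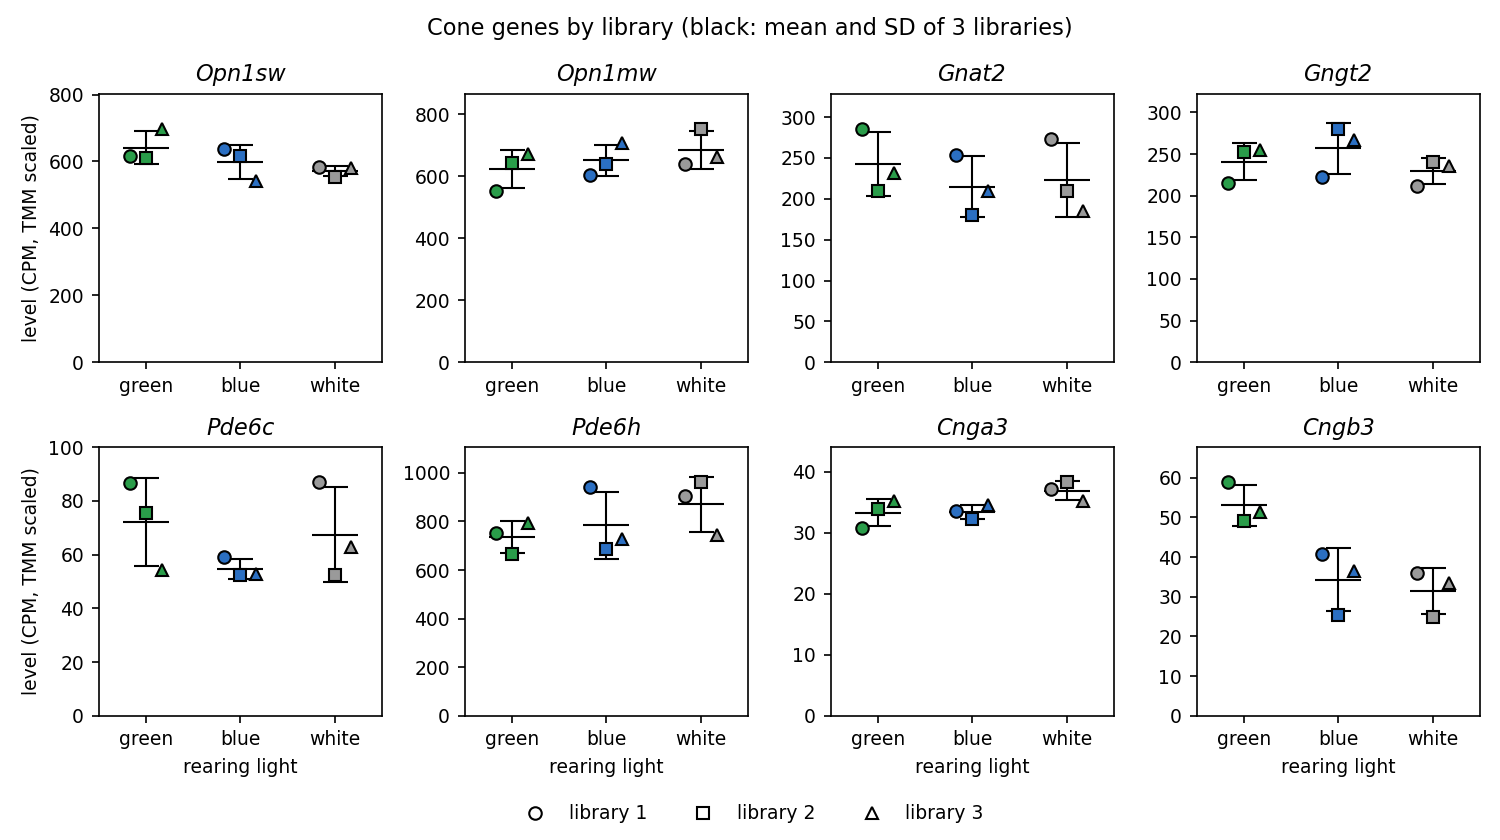
Levels of the 8 cone genes (vertical axes, TMM-scaled CPM, each from 0) in the 3 libraries of each rearing light (horizontal axis); points are libraries, black bars the mean and SD of 3 libraries. Cngb3 is the gene whose 3 green libraries (49.1 to 58.9 CPM) lie above all blue and white ones (25.0 to 40.8 CPM).

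Taken as a ratio of counts within a library, the 2 opsins can be compared free of library size and of scaling. The ratio is not per transcript length, so it says nothing of which opsin is more abundant and is read across libraries alone. The Opn1sw to Opn1mw ratio was 1.11, 0.949 and 1.04 in the green libraries, 1.05, 0.962 and 0.766 in the blue ones and 0.912, 0.735 and 0.878 in the white ones. All green libraries lay above all white ones, and blue covered most of the range of both. The mean ratio was 1.03 ± 0.0819 in green, 0.927 ± 0.146 in blue and 0.842 ± 0.0941 in white (SD, n = 3). On the log2 scale green exceeded white by 0.30, a 1.23-fold difference. Its two-sided exact permutation p of 0.1 is the smallest that 3 libraries against 3 can give, and adjusted over the 9 ratio comparisons made it is 0.9. Without library 2 of white the difference was 0.20, and without library 1 of white it was 0.36. Blue minus white was 0.13 (exact permutation p = 0.4) and green minus blue 0.17 (exact permutation p = 0.5), also at 0.9 after adjustment. Single libraries set much of both: blue minus white was 0.034 without library 1 of blue, 0.038 without library 2 of white and 0.26 without library 3 of blue. Green minus blue was 0.036 without library 3 of blue and 0.26 without library 1 of blue. Because a single ratio of these sizes can come from either gene, each opsin was also set against Gnat2, a gene of both cone types. Opn1sw to Gnat2 differed by 0.03 between green and white on the log2 scale and Opn1mw to Gnat2 by -0.27 (exact permutation p = 0.9 and 0.5). Gnat2 itself varied more over the 9 libraries, with a coefficient of variation of 16.5% against 7.80% for Opn1sw and 8.77% for Opn1mw. Its own log2 difference between green and white was 0.12 ± 0.17 (SE), so these ratios cannot tell which opsin differed.

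Libraries of the same animal differed in the opsin ratio by 1.17-fold to 1.26-fold, beside 1.10-fold to 1.23-fold between the lights. The latter compare means of 3 libraries, which vary less than single ones, so the 2 kinds of gap are not alike. In blue, the right eye of animal 32 had a ratio of 0.962 and its left eye 0.766, a 1.26-fold gap. In white, the right eye of animal 6 had 0.912 and its left eye 0.735, a 1.24-fold gap. The 2 green libraries of animal 11 stood at 1.11 and 0.949, a 1.17-fold gap. In each light group the library with the lowest ratio was also the one with the highest sum of pigment epithelium markers: 346 CPM in green, 386 CPM in blue, 395 CPM in white. The other libraries had sums of 94.8 and 80.3 CPM for green, 269 and 281 CPM for blue and 186 and 116 CPM for white. Rpe65, Best1, Ttr, Pmel, Lrat and Mlana were each highest of their group in these libraries, with Rpe65 between 7.76 and 144 CPM over all libraries. The remaining markers did not follow. Slc45a2 had 27.7 CPM in library 2 of green, the lowest of that group, and was not the highest in library 3 of blue (35.3 CPM) or library 2 of white (32.9 CPM). Tyrp1 was at or near 0 throughout (0 to 1.17 CPM). As a covariate in edgeR, the mean log2 level of all 8 markers was used, in which Slc45a2 and Tyrp1 weigh as much as the rest. With it, green minus white was 0.13 for Opn1sw and -0.10 for Opn1mw on the log2 scale, in place of 0.17 and -0.14. In the 2 animals with both eyes, the right eye had the higher ratio and the lower marker sum, so eye and marker level cannot be told apart there.

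**Figure D2:**
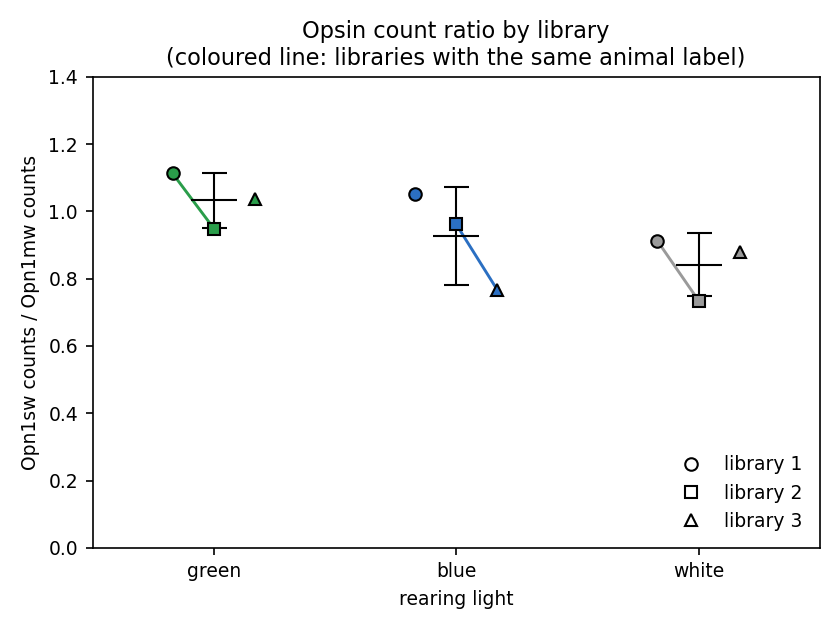
Ratio of Opn1sw to Opn1mw counts (vertical axis, no unit) by rearing light (horizontal axis); points are libraries, black bars the mean and SD of 3 libraries, and coloured lines join libraries that carry the same animal label. Green libraries lie between 0.949 and 1.11 and white ones between 0.735 and 0.912, and the joined libraries differ by 1.17-fold to 1.26-fold.

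Cone transducin passes the signal from the opsin to the phosphodiesterase, and the levels of its alpha and gamma subunits overlapped between the lights. Gnat2, the alpha subunit, was at 286, 209.6 and 231 CPM in green, at 254, 181 and 210.1 CPM in blue and at 273, 210.1 and 185 CPM in white. Library 1 was the highest of each group, but library numbers give the order of deposition and pair nothing across lights. The ranges overlapped throughout. Means were 242 ± 39.4, 215 ± 36.9 and 223 ± 45.4 CPM in green, blue and white. The largest of the 3 log2 differences, green minus blue, was 0.17 ± 0.17 (interval -0.19 to 0.54, edgeR adjusted p = 0.832). The libraries of animal 11 differed 1.36-fold in Gnat2, the eyes of animal 6 1.30-fold and those of animal 32 1.16-fold. No group means differed as much, but single libraries vary more than means of 3.

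Gngt2, the gamma subunit of cone transducin, stood at 215, 252 and 255 CPM in green, at 223, 281 and 267 CPM in blue and at 212, 241 and 235 CPM in white. Here library 1 was the lowest of each group, the reverse of Gnat2. Blue minus white was 0.16 ± 0.10 on the log2 scale (interval -0.06 to 0.39, edgeR adjusted p near 1), and the other comparisons were smaller, at 0.07 ± 0.10 for green minus white and -0.09 ± 0.10 for green minus blue.

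The cone phosphodiesterase hydrolyses cyclic GMP. Pde6c, its catalytic subunit, had 86.7, 75.4 and 54.3 CPM under green, 59.1, 52.5 and 52.7 CPM under blue and 87.0, 52.5 and 62.8 CPM under white light. The blue libraries formed a narrow band of 54.8 ± 3.76 CPM, inside which or near which lay 1 green and 1 white library, while green and white spread to 72.1 ± 16.5 and 67.4 ± 17.7 CPM. Green minus blue was 0.40 ± 0.19 on the log2 scale (interval -0.02 to 0.82, edgeR adjusted p = 0.709) and blue minus white was -0.30 ± 0.19. The eyes of animal 6 differed 1.66-fold, while those of animal 32 differed 1.003-fold.

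Pde6h encodes the inhibitory gamma subunit of the cone enzyme. Its levels were 753, 666 and 795 CPM under green, 942, 687 and 726 CPM under blue and 904, 962 and 744 CPM under white light. The groups overlapped, with means of 738 ± 65.8, 785 ± 137 and 870 ± 113 CPM. Green minus white was -0.24 ± 0.13 on the log2 scale (interval -0.53 to 0.05, edgeR adjusted p = 0.913).

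The cone channel, a tetramer of Cnga3 and Cngb3 subunits, held the difference with the smallest p among the 8 genes. Cngb3, the modulatory subunit, was higher in every green library than in any blue or white one: 4592, 3150 and 3597 counts, or 58.9, 49.1 and 51.3 CPM, in green. The blue libraries had 40.8, 25.5 and 36.6 CPM and the white ones 36.1, 25.0 and 33.6 CPM. The means were 53.1 ± 5.14 CPM under green, 34.3 ± 7.93 CPM under blue and 31.6 ± 5.80 CPM under white light. Green exceeded white 1.68-fold, a log2 difference of 0.75 ± 0.18 with an unadjusted 95% interval from 0.36 to 1.14 (unadjusted p = 0.00141, edgeR adjusted p = 0.703). That placed Cngb3 at rank 30 of the 15469 genes. Green exceeded blue 1.55-fold, by 0.63 ± 0.18 (unadjusted p = 0.00446, edgeR adjusted p = 0.586), and blue differed from white by 0.12 ± 0.18 (interval -0.27 to 0.51). The green group enters both of the larger comparisons, which are therefore not independent of each other.

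Cngb3 did not pass in edgeR under any alternative, and in DESeq2 it passed for green against white (adjusted p = 0.0184) and not for green against blue (adjusted p = 0.0692). DESeq2 called 0.155% of the genes between green and white and 0.359% between green and blue. In limma's voom the adjusted p was 0.729 for green against white. Over all alternatives the green minus white log2 difference of Cngb3 ran from 0.61, without library 2 of white, to 0.85, without library 1 of white. It was 0.69 with the pigment epithelium covariate, 0.71 without the 2 libraries whose titles end in "-B", and 0.72 with counts summed per animal label (edgeR adjusted p = 0.787). The "-B" libraries are library 1 of green and library 3 of white. Without them, white holds the 2 eyes of animal 6 alone. Bipolar cell markers, 4 genes, summed to 1093 to 1208 CPM in green, 1016 to 1072 CPM in blue and 1079 to 1133 CPM in white. The 6 lens markers summed to 36.1 to 42.5 CPM, 34.2 to 44.5 CPM and 26.1 to 42.6 CPM, with Mip at 0 in library 3 of white, and the part of either list in the Cngb3 result was not tested. Libraries of the same animal differed in Cngb3 by 1.20-fold in green, 1.44-fold in blue and 1.44-fold in white. Each was less than the 1.68-fold of green against white. That value compares means of 3 libraries, which vary less than single ones, so the 2 kinds of gap are not alike.

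Cnga3, the subunit that forms the pore of the channel, did not share that pattern. It was at 30.9, 33.9 and 35.2 CPM in green, at 33.5, 32.2 and 34.5 CPM in blue and at 37.2, 38.3 and 35.2 CPM in white. All green and all blue libraries lay below all white ones, in part by a narrow margin. Green minus white was -0.15 ± 0.09 (interval -0.34 to 0.04, edgeR adjusted p = 0.913) and blue minus white -0.14 ± 0.09 (interval -0.33 to 0.05), with the white libraries shared by both. Green and blue differed by -0.004 ± 0.09, with an interval from -0.20 to 0.19. Cnga3 was the steadiest of the 8 genes over the 9 libraries, with a coefficient of variation of 6.68%, and Cngb3 the most variable, with 29.2%.

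**Figure D3:**
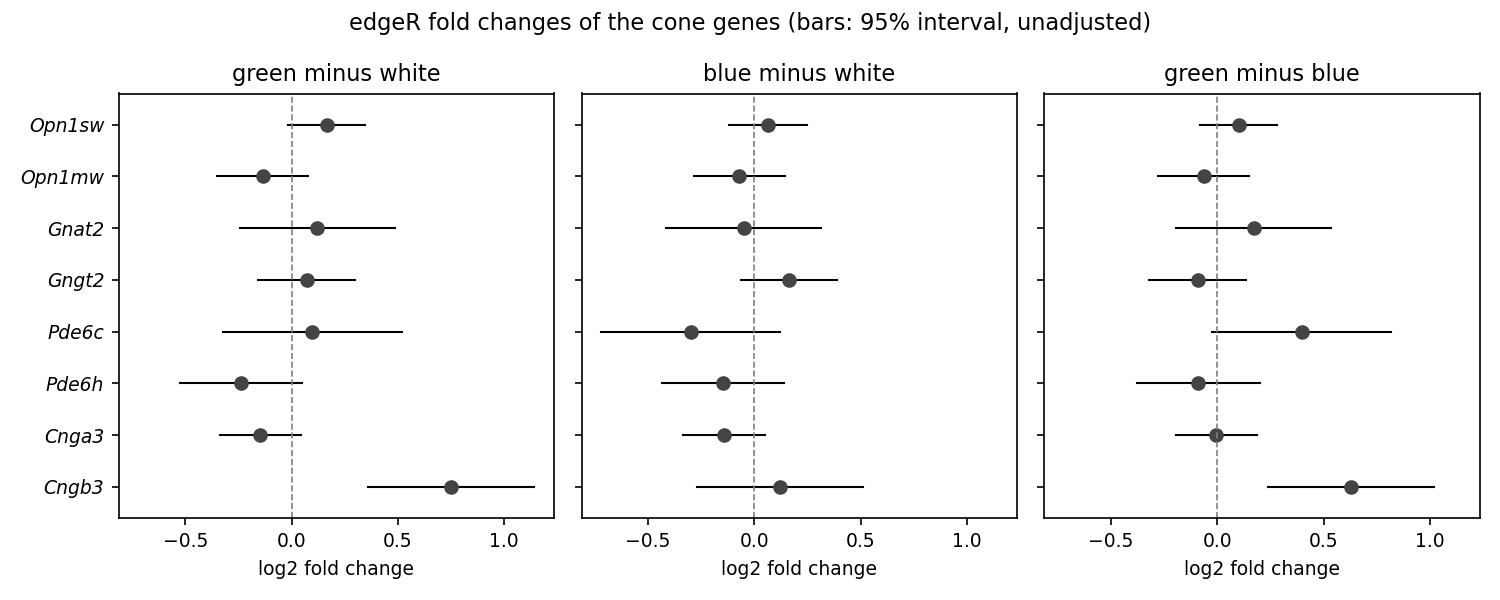
Log2 fold changes from edgeR (horizontal axes) of the 8 cone genes (vertical axis) in the 3 comparisons of lights; dots are estimates and bars their 95% intervals, not adjusted for the number of genes. The interval of Cngb3 leaves out 0 in green minus white (0.36 to 1.14) and green minus blue (0.24 to 1.02), and every other interval includes 0.

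Counted over the 8 genes, edgeR called 0 between green and white, where it called 0.00646% of all genes, and 1 gene (Cngb3) had an unadjusted p under 0.05, as did 5.81% of all genes. DESeq2 called 1 of the 8 there and voom 0, beside 0.155% and 0% of all genes. Groups did not overlap for 3 of the 8, with Opn1sw and Cngb3 higher and Cnga3 lower in green, against 10.1% of all genes (5.34% higher and 4.74% lower). Between blue and white edgeR called 0 of 8 (0.00646% of all genes) and 0 had an unadjusted p under 0.05 (4.45% of all genes). DESeq2 and voom also called 0 there (0.181% and 0% of all genes). Cnga3, lower in blue, was the 1 gene whose groups did not overlap, against 9.9% of all genes (5.76% higher and 4.14% lower). Between green and blue edgeR, DESeq2 and voom each called 0 of 8, beside 0%, 0.359% and 0% of all genes. Cngb3 was the 1 gene with an unadjusted p under 0.05 (7.18% of all genes) and the 1 gene without overlap, against 14.2% of all genes (7.23% higher and 6.94% lower). When all 3 lights were tested jointly, edgeR called 0 of 8 (0.00646% of all genes) and Cngb3, at an adjusted p of 0.611, was the 1 gene with an unadjusted p under 0.05 (5.94% of all genes). The joint test of DESeq2 called Cngb3 (adjusted p = 0.00965) among 0.531% of all genes. The median log2 difference of the 8 genes was 0.08 for green minus white, -0.06 for blue minus white and 0.05 for green minus blue, beside 0.009, 0.005 and -0.003 over all 15469 genes.

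The 8 genes differed in how they varied from library to library. Gnat2 was highest in library 1 of green, library 1 of white and library 1 of blue, at 254 to 286 CPM, and these were also the 3 libraries with the lowest Gngt2 (212 to 223 CPM) and the lowest Opn1mw (553 to 638 CPM). They had the 3 highest TMM factors, from 1.016 to 1.046, where the others ran from 0.977 to 1.0003. As a description over the 9 libraries, which share animals, Gnat2 and Gngt2 had a Pearson r of -0.79 and a Spearman ρ of -0.68, and Gnat2 and Pde6c had r = 0.65 and ρ = 0.53. Opn1mw and Cnga3 had r = 0.77 and ρ = 0.65, while Opn1sw and Opn1mw had r = -0.45 and ρ = -0.52. Cnga3 and Cngb3, which form a channel together, had r = -0.45 and ρ = -0.52. The part of the scaling in these patterns was not tested.

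**Figure D4:**
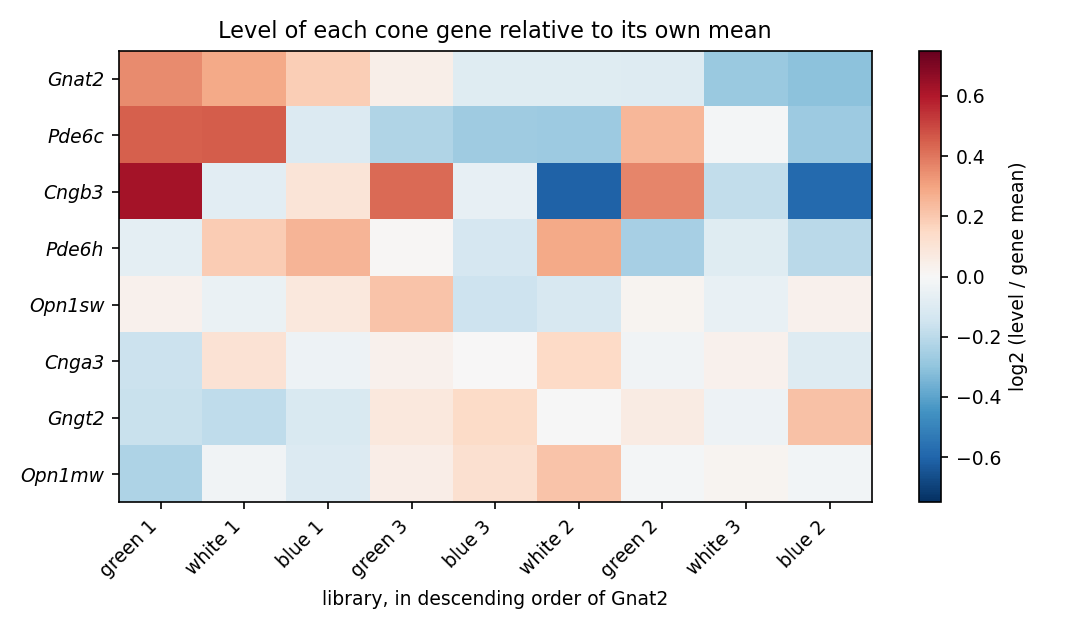
Level of each cone gene relative to its own mean (colour, log2 scale) in the 9 libraries, ordered from left to right by falling Gnat2. Gnat2 runs from 0.35 to -0.31, Gngt2 is below its mean in the 3 libraries highest in Gnat2, and Cngb3 is above its mean by 0.36 to 0.63 in the 3 green libraries.

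Outside the 8 genes, those whose levels most resembled an opsin's over the 9 libraries were sought among 10591 genes with a symbol and a mean of at least 5 CPM. Nearest to Opn1sw were Brat1 (r = 0.97, ρ = 0.88), Hdac10 (r = 0.93, ρ = 0.83), Adck5 (r = 0.89, ρ = 0.70), Prr22 (r = 0.88, ρ = 0.77) and Bricd5 (r = 0.88, ρ = 0.85). Nearest to Opn1mw were Slc39a7 (r = 0.98, ρ = 0.93), Sae1 (r = 0.97, ρ = 0.95), Ddx41 (r = 0.97, ρ = 0.88), Psmb6 (r = 0.96, ρ = 0.87) and Psmb3 (r = 0.96, ρ = 0.82). For Gnat2 they were Btbd1 (r = 0.98), Rbm6 (r = 0.98), Dld (r = 0.97), Reep1 (r = 0.96) and Rrm1 (r = 0.96), with ρ from 0.92 to 0.97. These are the highest of 10591 values of r for each gene, over 9 libraries that share animals, and describe likeness alone.

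Set against the rod gene of the same function, cone counts overlapped between the lights for each of the 5 pairs given here. These are ratios of counts, not per length, and describe differences between libraries alone. Gnat2 counts were 2.11 ± 0.649% of those of the rod transducin Gnat1 in green, 1.80 ± 0.359% in blue and 1.87 ± 0.47% in white. Library 1 of green had the highest share, 2.85%, and the lowest Gnat1, 10027 CPM. Pde6c came to 2.39 ± 0.798%, 1.96 ± 0.25% and 2.43 ± 0.612% of the rod catalytic subunits Pde6a and Pde6b together. Pde6h came to 20.7 ± 3.53%, 21.4 ± 5.37% and 23.2 ± 3.39% of the rod inhibitory subunit Pde6g, and Gngt2 to 128 ± 22.2%, 125 ± 38.5% and 134 ± 19.0% of the rod gamma subunit Gngt1. Cnga3 came to 32.1 ± 9.93%, 35.3 ± 1.96% and 42.5 ± 17.1% of the rod channel subunit Cnga1.

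Further proteins of the cone cascade gave no call. The list of 20 partners holds kinases, recoverin, guanylate cyclases with their activators, the transducin beta subunit Gnb3, the GTPase-accelerating complex and the channels and exchangers of the inner and outer segment. Of these 16 were tested and edgeR called 0 in each comparison. Together the 16 reached 13873 to 16488 CPM per library in whole retina, and the share of rods in these levels was not tested. Between green and white 8 were higher and 8 lower, with a median log2 difference of 0.01. Between green and blue 11 were higher and 5 lower in green, with a median of 0.07. Rgs9, whose product speeds the shut-off of transducin, had the smallest p of the list in both. Its means were 360 ± 53.7 CPM under green, 309 ± 17.2 CPM under blue and 312 ± 24.1 CPM under white light (edgeR adjusted p = 0.877 and 0.709). Between blue and white 6 were higher and 10 lower, with a median of -0.04.

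Of the 12 rod genes listed, 11 were tested and edgeR called 0, with 7 higher and 4 lower in green than in white and medians of 0.08 and, for blue minus white, 0.004. Nr2e3, a nuclear receptor that represses cone genes in rods, was at 364, 505 and 526 CPM in green, at 406, 482 and 433 CPM in blue and at 345, 346 and 318 CPM in white. Both colours lay above white without overlap, by 0.47 ± 0.13 and 0.39 ± 0.13 on the log2 scale (edgeR adjusted p = 0.768 and 0.968), with the white libraries shared. Between green and blue 4 were higher and 7 lower in green (median -0.03), and Sag, the rod arrestin, had the smallest p of the list, with means of 14289 ± 2522 and 16086 ± 1521 CPM.

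Among 11 regulators of cone fate and opsin choice, 10 were tested and edgeR called 0 in each comparison. In green 7 were higher and 3 lower than in white (median log2 difference 0.07), 6 and 4 against blue (median 0.05), and in blue 6 and 4 against white (median 0.02). Thrb, the thyroid hormone receptor on which middle-wavelength opsin depends in mice, measured 62.5, 64.2 and 51.3 CPM under green light and 50.7, 43.5 and 49.2 CPM under white light. The groups did not overlap, and the log2 difference of 0.31 ± 0.13 did not pass (edgeR adjusted p = 0.85). Rorb, a nuclear receptor that takes part in short-wavelength opsin expression, measured 67.1, 55.6 and 44.1 CPM under green light and 36.2, 36.7 and 34.8 CPM under blue light. The difference was 0.63 ± 0.19, without overlap (edgeR adjusted p = 0.599), and the white libraries spread from 34.3 to 58.2 CPM. Rxrg, the partner of Thrb in cones, lay between 107 and 124 CPM in all 9 libraries.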

How the data were processed

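The authors deposited whole-number counts per gene for 9 retinal libraries, per the file headers. Per the labels' protocols, retinas were frozen, RNA was extracted with Trizol and libraries were sequenced with paired ends. No aligner, counting tool, strand setting or build is given in the sources used here. Low counts favour multiples of 4 (2014 values equal 4 and 472 equal 3), so a count may not be a single fragment, and the fits were repeated with counts divided by 4.

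All libraries entered a fit in edgeR 4.0.16 (R 4.3.3) with light as the term: filterByExpr (minimum count 10, minimum total 15), TMM, quasi-likelihood F tests and Benjamini-Hochberg adjustment over 15469 genes, threshold 0.05. Depth gave each of the 8 genes at least 1732 counts per library. Alternatives were DESeq2 1.42.0 (in the joint test, its likelihood ratio test), voom of limma 3.58.1, other scalings, filters, sample sets and covariates. Ratios of counts were compared by two-sided exact permutation tests (scipy 1.17.1). The genes named were the 8 members, the listed gene of smallest p per comparison, rod counterparts, and the 5 genes of highest r with Opn1sw, Opn1mw and Gnat2; Rxrg, a list member, was added after its values were seen. Members and lists were chosen with earlier results of these data known. Symbols were used as deposited, and all 8 match a protein-coding gene in RefSeq's table of mCavPor4.1. Results of some listed genes are not reported here.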

Additional observations from a re-analysis of the deposited data

How the results depend on the processing

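Of the alternatives tried, DESeq2 changed the count of cone genes called, to 1 (Cngb3) between green and white and 1 in the joint test, with Cngb3 at a log2 difference of 0.75 between green and white. With each library left out in turn, the count stayed at 0 in every comparison. The log2 ratio of Opn1sw to Opn1mw kept its direction in all alternatives. Over all settings, 500 single-gene fold changes kept their direction and their side of the threshold, and 27 changed sign, none of which had passed. Of the ratios, for which direction alone was compared, 66 kept it and 15 changed sign. Cnga3, green minus blue, went to 0.0028 with upper-quartile scaling, 0.0013 with no filter, 0.0027 with the filter of 5 CPM, 0.0013 in a fit of the 2 groups alone, 0.012 summed per animal label, 0.016 with the pigment epithelium covariate, 0.038 with the "-B" covariate and 0.053 without both "-B" libraries. Gnat2, blue minus white, went to 0.073 summed per animal label. Without both "-B" libraries, green minus white went to -0.14 for Gnat2 and -0.11 for Pde6c, and green minus blue to 0.020 for Opn1mw. Per animal label, Opn1sw to Gnat2 went to -0.00065 (blue minus white) and 0.012 (green minus blue). Without both "-B" libraries it went to 0.081 (green minus blue), and Opn1mw to Gnat2 to 0.045 (green minus white) and 0.075 (blue minus white). Leaving out 1 library gave ranges that cross 0 for Cnga3 (-0.042 to 0.053), Opn1mw (-0.12 to 0.020) and Pde6h (-0.18 to 0.063) in green minus blue. In blue minus white they were -0.024 to 0.29 for Cngb3, -0.19 to 0.11 for Gnat2 and -0.13 to 0.0035 for Opn1mw, and in green minus white -0.018 to 0.29 for Gnat2 and -0.060 to 0.32 for Pde6c. For Opn1sw to Gnat2 they were -0.11 to 0.19 (green minus white), -0.037 to 0.24 (blue minus white) and -0.16 to 0.081 (green minus blue), and for Opn1mw to Gnat2 -0.23 to 0.15 (blue minus white). Ranges that kept their sign but moved by over 1.5 times included Pde6c (0.25 to 0.57) and Gnat2 (0.042 to 0.31) in green minus blue, and Pde6c (-0.45 to -0.083), Pde6h (-0.30 to -0.061) and Gngt2 (0.094 to 0.25) in blue minus white. The causes were not tested. No paired analysis was possible because library numbers were given in order of deposition and pair nothing across lights. Counts of the 8 genes are high, at least 1732 per library, while each group holds 3 libraries from 2 animal labels. What limits the comparisons was not tested, but 3 libraries against 3 cannot give an exact p below 0.1.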
